A study of Mus musculus with 6 samples.

Results

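Netrins and Draxin are secreted guidance cues, and Dcc, Neo1 and the Unc5 proteins are the receptors that growing axons and migrating neurons use to read them. The 9 genes of this system described here are the ligand genes Ntn1, Ntn4 and Draxin and the receptor genes Dcc, Neo1, Unc5a, Unc5b, Unc5c and Unc5d. They were taken by name from a table of 34866 genes, and all 9 had a row and enough counts to be tested among 15216 genes. Forebrain RNA was taken from mouse embryos at E14.5, embryonic day 14.5. The 3 libraries labelled mutant carried 1 floxed and 1 null allele of Sap130 (f/-) and Emx1-cre. The 3 controls carried 1 floxed and 1 wild-type allele (f/+) and Emx1-cre as well, so floxed Sap130 and the Cre driver were present in all 6 libraries. Emx1-cre recombines in the lineage of the dorsal telencephalon, while the forebrain tissue also holds cells outside that lineage. Sample titles begin with SPF-539 (mutant 1 and control 1) or SPF-552 (mutants 2 and 3, controls 2 and 3), a number whose meaning was not found in the labels.

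Netrin-1 attracts axons that carry Dcc and repels those that carry an Unc5 receptor, alone or together with Dcc. Draxin has no sequence relation to netrins. It binds both netrin-1 and Dcc, repels several classes of axon, and is needed in mice for the forebrain commissures. Neogenin, the product of Neo1, is the close relative of Dcc and also binds the repulsive guidance molecules Rgma and Rgmb. In the embryonic cortex Unc5d marks multipolar cells of the subventricular zone.

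Sap130, the targeted gene, was measured first as a check of the labels. It stood at 137.7, 124.1 and 124.1 CPM (counts scaled to library size with TMM factors) in the libraries labelled mutant, against 82.8, 84.9 and 84.4 CPM in controls. Every library labelled mutant lay above every control, which goes against a loss of this transcript, although the counts cover the whole gene and do not show which exons were read. The log2 fold change was 0.61 (standard error 0.0764, adjusted p = 0.0116 in the quasi-likelihood test of edgeR, adjusted by Benjamini-Hochberg), and it was 0.55 within SPF-552. The call was lost without mutant 2 or without control 1, 2 or 3 (adjusted p = 0.0689, 0.0976, 0.111 and 0.0798, with log2 fold changes from 0.60 to 0.64). Whether the labels of both groups were exchanged, or the altered alleles still give transcript, cannot be told apart with these counts, and an exchange would turn the sign of every fold change given here. Higher and lower are used of the libraries by their labels.

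Total estimated counts lay between 20775583 and 25999874 per library. Mutant 1 stood apart from the other libraries in the way levels went with exon length. Among the 2710 tested genes with 8 kb of exon or more, the median distance from the control mean in log2 CPM was 0.18 in mutant 1, against 0.03 and 0.02 in mutants 2 and 3 and -0.05, 0.01 and 0.04 in the controls. Among the 2044 genes under 2 kb it was -0.24 in mutant 1, against values from -0.02 to 0.03 in the other 5 libraries. Dcc, Neo1, Unc5c and Unc5d have exon lengths above 8 kb, so this shift touches 4 of the 6 receptors. Fold changes are given below also with a per-library offset for exon length and within SPF-552, which does not hold mutant 1. Dorsal forebrain tissue was checked with Emx1, the homeobox gene of the dorsal telencephalon, at 44.9, 55.6 and 49.6 CPM in the libraries labelled mutant, against 64.6, 57.1 and 56 CPM in controls. Emx1 was lower without overlap but did not pass (log2 fold change -0.24, adjusted p = 0.457 in the quasi-likelihood test of edgeR). Other cortical genes went both ways. Neurod2 and Neurod6, bHLH factors of excitatory neurons, fell by 0.75 and 0.90 on the log2 scale (adjusted p = 0.0116 and 0.003 in edgeR), while the progenitor factors Emx2 and Pax6 had log2 fold changes of 0.18 and 0.22 and did not pass.

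**Figure D1:**
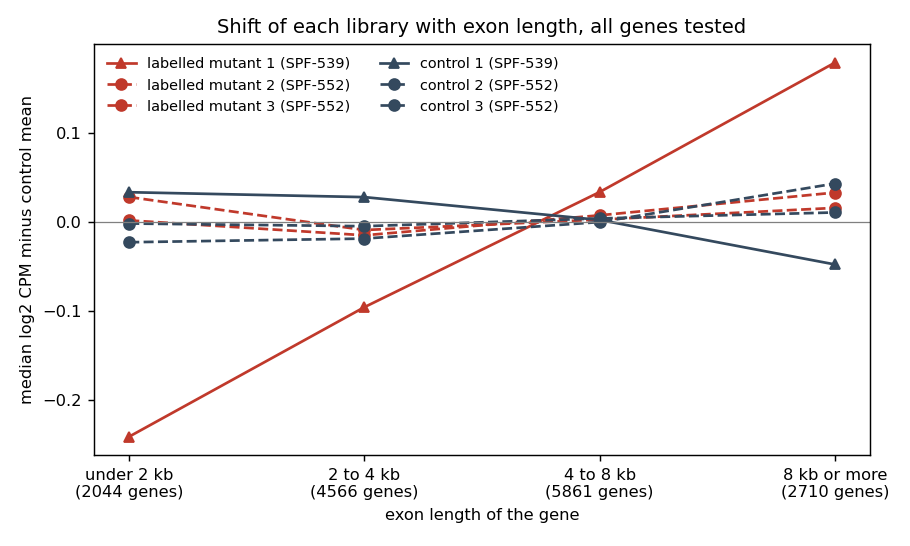
Median over all tested genes of log2 CPM minus the control mean (vertical axis) in 4 classes of exon length (horizontal axis), for each library; red lines are libraries labelled mutant, dark lines controls, triangles with full lines SPF-539 and circles with dashed lines SPF-552. Mutant 1 runs from -0.24 in the shortest class to 0.18 in the longest, while the other 5 libraries stay between -0.05 and 0.04.

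The genes differed widely in level once divided by length. In CPM per kb of exon, Draxin averaged 31.9 ± 2.45 in the libraries labelled mutant and 39.3 ± 1.35 in controls (SD, n = 3 each), and Neo1 averaged 38.7 ± 6.02 in the libraries labelled mutant and 37.7 ± 1.30 in controls. These 2 genes headed the order, and their control values overlapped (37.8 to 40.4 for Draxin and 36.2 to 38.6 for Neo1). Ntn1 followed at 16.8 ± 0.234 CPM per kb in the libraries labelled mutant and 13.4 ± 0.664 in controls. Dcc had 12.1 ± 1.40 and 10.4 ± 1.53 CPM per kb in labelled mutants and controls, and Unc5a had 8.33 ± 1.04 and 10.3 ± 1.87. The control values of Dcc and Unc5a overlapped.

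Unc5d, Unc5b and Ntn4 formed a lower group, at 5.28 ± 1.24, 6.23 ± 0.183 and 6.25 ± 0.557 CPM per kb in the libraries labelled mutant and 6.89 ± 0.334, 6.12 ± 0.797 and 5.67 ± 0.266 CPM per kb in controls, in this order. Control values overlapped between Unc5d and Unc5b and between Unc5b and Ntn4, so neighbours within this group are not separated beyond their spread. Unc5c was lowest, at 2.25 ± 0.064 CPM per kb in the libraries labelled mutant and 1.84 ± 0.281 in controls. Its length of 19135 bases sums every annotated exon, including those of short or non-coding transcripts, and with its longest coding transcript of 9646 bases the control level was 3.65 ± 0.558, still the lowest of the 9. With that second length Neo1 (44.6 ± 1.54 CPM per kb in controls) stood above Draxin (39.3 ± 1.35), and the control values of Dcc (11.3 to 15.2) overlapped those of Ntn1 (13.6 to 15).

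**Figure D2:**
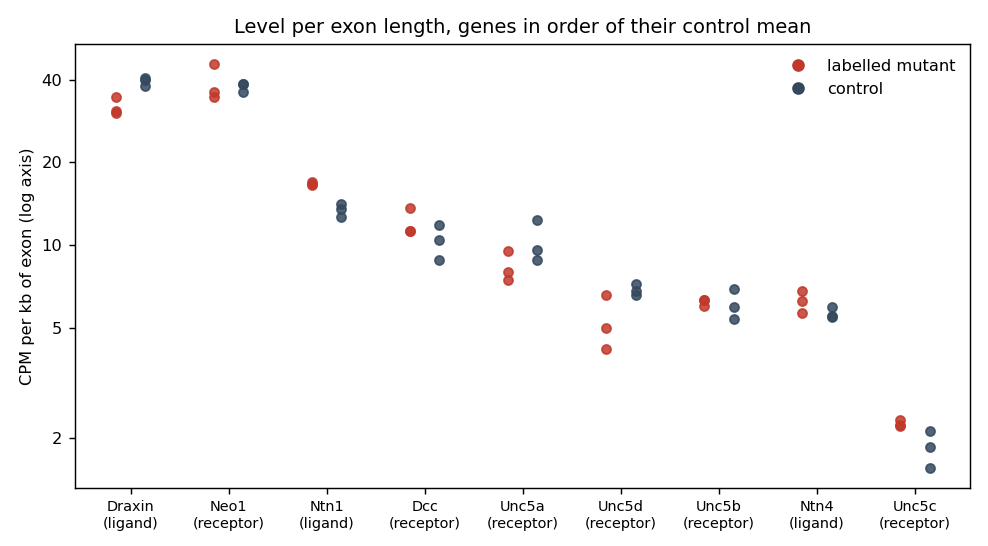
Level of each gene in CPM per kb of exon on a log axis, 1 point per library, with libraries labelled mutant in red on the left of each pair and controls in dark on the right; genes stand in the order of their control mean. Draxin and Neo1 lie between 30.2 and 45.5, Ntn1, Dcc and Unc5a between 7.49 and 17.0, and Unc5c at 2.32 or below.

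The comparison of mutant with control asks whether this guidance system differs between f/- and f/+ forebrain, with floxed Sap130 and Emx1-cre in both groups. The groups differ in the other Sap130 allele, null or wild-type, so the effect of Emx1-cre is not separated. Ntn1 was higher and Draxin lower in all 3 libraries labelled mutant, each by about 0.3 on the log2 scale, while the receptors split in both directions. In edgeR's quasi-likelihood test 0 of the 9 genes passed an FDR of 0.05, a threshold that 0.138% of all tested genes passed. At an unadjusted p under 0.05 there were 5 of 9, against 9.6% of all tested genes. Ntn1 and Unc5c were the 2 higher ones (5.22% of all genes) and Draxin, Unc5a and Unc5d the 3 lower ones (4.38%). DESeq2 called 1 of the 9, Ntn1, against 1.35% of all genes, and edgeR's likelihood-ratio test also called Ntn1 alone, against 0.986%. Groups did not overlap for Ntn1 and Unc5c, which were higher (8.17% of all genes), and for Draxin, which was lower (8.49%).

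The number called changed when mutant 1 was left out and with the setting used. Without mutant 1 the 3 genes Ntn1, Draxin and Unc5d passed, against 2.14% of all genes, and the same 3 passed within SPF-552 alone, which also lacks mutant 1, against 3.7%. They also passed with the exon length offset and the title number as a block together, against 2.68%, while the block alone called 0, against 0.762%.

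Ntn1 (ENSMUSG00000020902, GRCm38 chromosome 11, 68209364 to 68400823, minus strand) encodes netrin-1. It had 105, 104 and 106.9 CPM in the libraries labelled mutant, against 88.33, 84.51 and 80.0 CPM in controls. The lowest library labelled mutant lay above the highest control, and the libraries labelled mutant differed from each other by less than 3 CPM. Means were 105 ± 1.47 CPM in the libraries labelled mutant and 84.3 ± 4.17 CPM in controls (SD, n = 3 each), or 1.25-fold. On the log2 scale this was 0.32 (95% interval 0.16 to 0.48, adjusted p = 0.156 in the quasi-likelihood test of edgeR), and Ntn1 ranked 109th of the 15216 genes by p. An exact two-sided permutation test gave p = 0.1, the lowest value possible with 3 libraries in each group. The log2 ratio was 0.25 in SPF-539 and 0.36 in SPF-552, so both title numbers had the same direction. Without mutant 1 Ntn1 passed (adjusted p = 0.0254 in the quasi-likelihood test of edgeR), and within SPF-552 alone it passed as well (adjusted p = 0.00405 in edgeR), with log2 fold changes of 0.32 and 0.36. With any other library left out instead, Ntn1 did not pass (adjusted p from 0.339 to 0.643 in the same test). In this bulk tissue, a different number of cells of a type and a different amount of RNA per cell cannot be told apart.

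Draxin (ENSMUSG00000029005, chromosome 4, 148098437 to 148130698, minus strand) had 180.3, 159.6 and 157.1 CPM in the libraries labelled mutant, against 196.6, 209.9 and 207.2 CPM in controls. The groups did not overlap, with mutant 1 nearest to the controls. Means were 166 ± 12.7 CPM in the libraries labelled mutant and 205 ± 7.02 CPM in controls (SD, n = 3 each), for a log2 fold change of -0.30 (95% interval -0.48 to -0.13, adjusted p = 0.204 in the quasi-likelihood test of edgeR), and the exact two-sided permutation test again gave p = 0.1. The log2 ratio was -0.12 within SPF-539 and -0.40 within SPF-552. Draxin passed the quasi-likelihood test of edgeR without mutant 1 (log2 fold change -0.37, adjusted p = 0.00641) and within SPF-552 alone (-0.40, adjusted p = 0.000487). With any other library left out instead, Draxin did not pass (adjusted p from 0.408 to 0.773 in the same test).

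Ntn4 (ENSMUSG00000020019, chromosome 10, 93640681 to 93747207, plus strand) encodes a netrin of basement membranes that is closer to laminin beta chains than netrin-1 is. Its values were 21.27, 23.49 and 25.43 CPM in the libraries labelled mutant and 20.63, 22.38 and 20.68 CPM in controls. The groups overlapped, and the log2 fold change of 0.14 had a 95% interval of -0.10 to 0.38.

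The authors' deposited table, which lists 369 genes up to an FDR of 0.0994, holds 2 of the 9, Ntn1 and Draxin. For scale, 15216 genes were tested here, but how many the authors tested is not known. The share of all genes listed is therefore not known either, and ligands were not tested against receptors. The authors' deposited table gives Ntn1 a log2 fold change of 0.34 with an FDR of 0.0216 and Draxin -0.30 with an FDR of 0.0894. The authors' comparison is a test of the same libraries and adds no independent evidence.

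**Figure D3:**
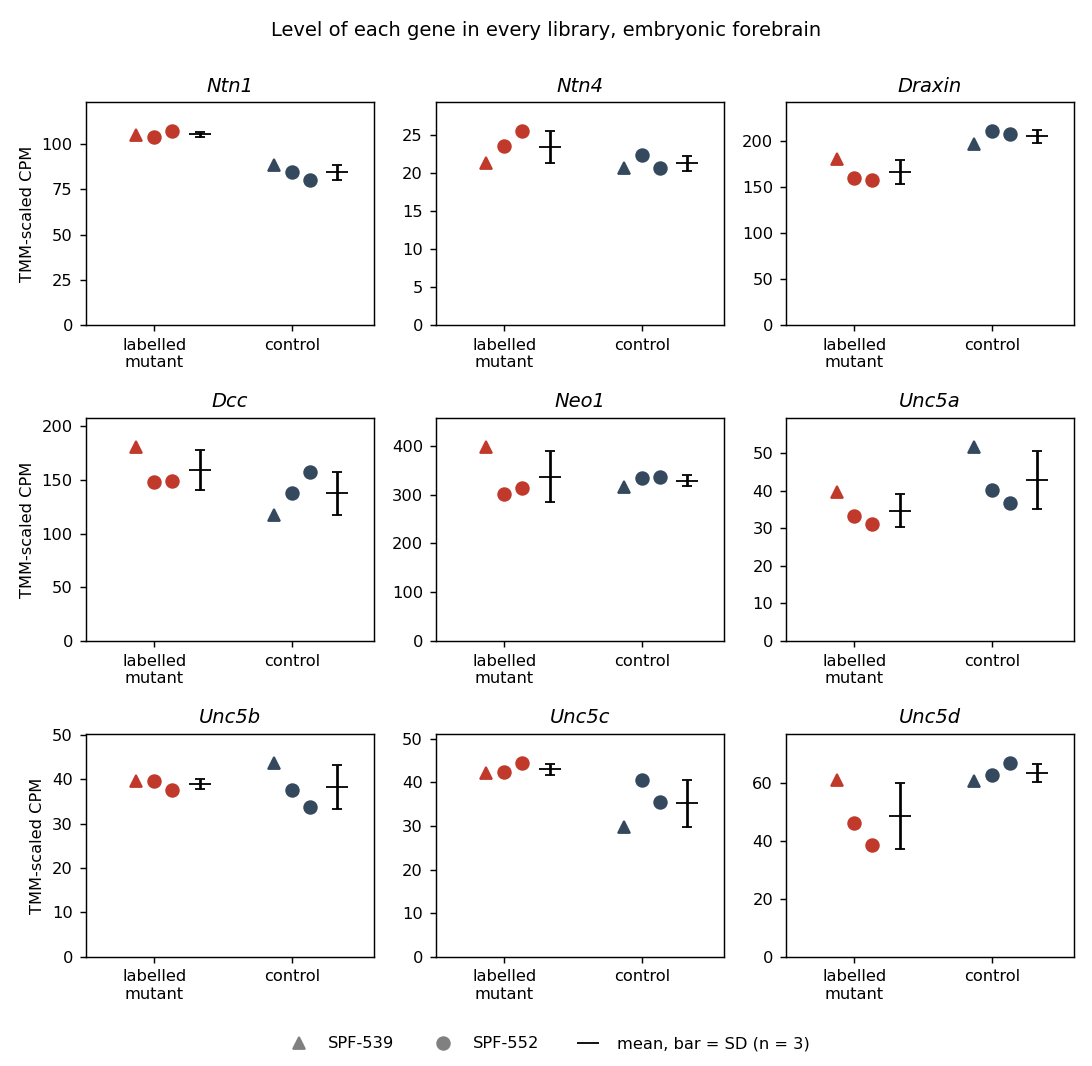
TMM-scaled CPM of each of the 9 genes in every library, with libraries labelled mutant in red on the left and controls in dark on the right of each panel; triangles are SPF-539, circles SPF-552, and the black mark with its bar is the mean ± SD of 3 libraries. Groups are separate for Ntn1 (104 or more against 88.33 or less), Draxin (180.3 or less against 196.6 or more) and Unc5c (42.26 or more against 40.54 or less).

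Of the receptors, Dcc and Neo1 are a family of immunoglobulin-domain proteins that bind netrins directly. Dcc (ENSMUSG00000060534, chromosome 18, 71253634 to 72351069, minus strand), the receptor for attraction to netrin-1, had 180.3, 148.4 and 148.5 CPM in the libraries labelled mutant, against 116.8, 138.0 and 157.1 CPM in controls. Control 3 lay above mutants 2 and 3, so the groups overlapped. Its log2 fold change was 0.21 (95% interval -0.04 to 0.46, adjusted p = 0.603 in the quasi-likelihood test of edgeR). In SPF-539 the log2 ratio was 0.63, against 0.01 in SPF-552. With the exon length offset the log2 fold change of Dcc was 0.13.

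Neo1 (ENSMUSG00000032340, chromosome 9, 58874687 to 59036441, minus strand) was the gene with the most counts of the 9. It had 397.0, 300.4 and 313.3 CPM in the libraries labelled mutant, against 315.7, 334.7 and 336.0 CPM in controls. Mutant 1 lay above all controls, and mutants 2 and 3 lay below all controls, and the log2 fold change was 0.04 (95% interval -0.19 to 0.26). This direction turned with mutant 1: the log2 ratio was 0.33 within SPF-539 and -0.13 within SPF-552, and the log2 fold change was -0.10 without mutant 1 and -0.02 with the exon length offset.

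The Unc5 receptors convey repulsion by netrin-1 and can trigger cell death when no ligand is bound. Unc5d (ENSMUSG00000063626, chromosome 8, 28646717 to 29219636, minus strand) had 61.1, 46.11 and 38.7 CPM in the libraries labelled mutant, against 60.89, 62.88 and 66.94 CPM in controls. Mutants 2 and 3 lay well below every control, while mutant 1 was within the control range. Means were 48.6 ± 11.4 CPM in the libraries labelled mutant and 63.6 ± 3.08 CPM in controls (SD, n = 3 each), and the log2 fold change was -0.38 (95% interval -0.69 to -0.08, adjusted p = 0.381 in the quasi-likelihood test of edgeR). This was the largest difference in size among the 9. The log2 ratio was 0.00 within SPF-539 and -0.62 within SPF-552.

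Without mutant 1 the log2 fold change of Unc5d was -0.58 and it passed (adjusted p = 0.00304 in the quasi-likelihood test of edgeR). With any other library left out instead, Unc5d did not pass (adjusted p from 0.563 to 0.812 in the same test). With the exon length offset its log2 fold change was -0.45 (adjusted p = 0.146 in edgeR). The non-coding transcript Svet1, long used as a marker of the subventricular zone, is annotated within Unc5d on the same strand and shares 0 bases with its exons.

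Unc5a (ENSMUSG00000025876, chromosome 13, 54949411 to 55006018, plus strand) had 39.6, 33.37 and 31.23 CPM in the libraries labelled mutant, against 51.61, 40.15 and 36.77 CPM in controls. Mutant 1 lay above control 3, so the groups overlapped, but within each title number every library labelled mutant lay below every control. The share of all tested genes that separate in this way was not computed. Its log2 fold change was -0.30 (95% interval -0.60 to -0.01, adjusted p = 0.509 in the quasi-likelihood test of edgeR), with log2 ratios of -0.38 within SPF-539 and -0.25 within SPF-552. Without control 1 the log2 fold change was -0.14. Unc5a shares 34 exon bases with Hk3 on the opposite strand, and the library kit did not mark strand. Hk3 was at 1.67 CPM or less in each library.

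Unc5c (ENSMUSG00000059921, chromosome 3, 141465216 to 141834924, plus strand) had 42.26, 42.39 and 44.44 CPM in the libraries labelled mutant, against 29.79, 40.54 and 35.42 CPM in controls. The groups did not overlap, although control 2 came within 2 CPM of mutant 1. Means were 43.0 ± 1.22 CPM in the libraries labelled mutant and 35.2 ± 5.38 CPM in controls (SD, n = 3 each), with a log2 fold change of 0.29 (95% interval 0.04 to 0.54, adjusted p = 0.44 in the quasi-likelihood test of edgeR). It was 0.17 with the exon length offset and 0.18 without control 1. Unc5c shares 118 exon bases with the antisense gene Gm15688, whose reads cannot be told apart from those of Unc5c without strand.

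Unc5b (ENSMUSG00000020099, chromosome 10, 60762593 to 60831581, minus strand), which is also a receptor of vascular endothelium, had 39.56, 39.71 and 37.65 CPM in the libraries labelled mutant, against 43.65, 37.47 and 33.78 CPM in controls. The libraries labelled mutant lay inside the control range, and the log2 fold change was 0.03 (95% interval -0.21 to 0.26). The 8 endothelial marker genes, none at 0 in any library, summed to between 312.9 and 329.3 CPM in the libraries labelled mutant and to between 299.2 and 334.4 CPM in controls, and 0 of the 8 passed.

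**Figure D4:**
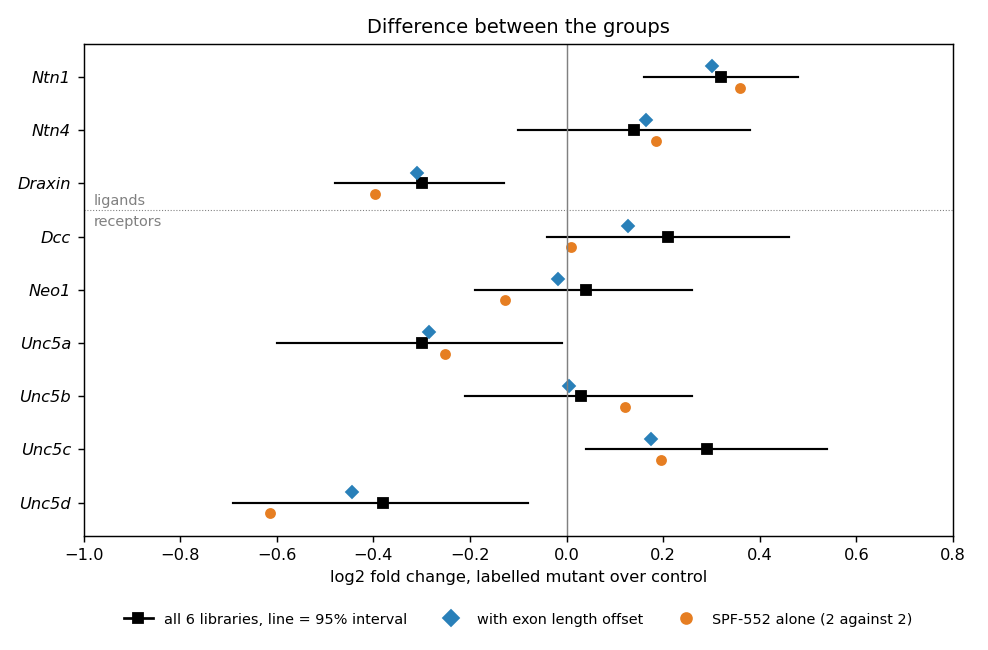
Log2 fold change of labelled mutant over control for the 9 genes, ligands above the dotted line and receptors under it: black squares with their 95% interval for all 6 libraries, blue diamonds with the exon length offset, orange circles for SPF-552 alone. Ntn1 at 0.32 and Draxin at -0.30 keep their side of 0 in all 3 fits, while Neo1 at 0.04 stands at -0.02 and -0.13 in the other fits.

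Taken as groups, ligands and receptors both held genes above and below 0. The median log2 fold change was 0.14 over the 3 ligands (range -0.30 to 0.32) and 0.03 over the 6 receptors (range -0.38 to 0.29), with a median of -0.0003 over all 15216 genes. With only 3 ligands, their median is the value of Ntn4, whose groups overlapped, while Ntn1 and Draxin went opposite ways. The receptor median was -0.043 without mutant 1, -0.004 without control 3 and -0.007 with the exon length offset, and the ligand median was 0.075 without mutant 3. Of the 3 ligands 2 had groups that did not overlap, and of the 6 receptors 1, against 16.7% of all tested genes. The ligand sum was 57.1, 53.5 and 54.0 CPM per kb in the libraries labelled mutant and 57.4, 59.8 and 58.1 CPM per kb in controls. The receptor sum was 83.9, 67.3 and 67.2 CPM per kb in the libraries labelled mutant and 72.6, 73.4 and 73.8 CPM per kb in controls. Ligand sums were lower in each library labelled mutant than in any control, with Draxin the largest part of them, although mutant 1 at 57.1 came close to control 1 at 57.4. Receptor sums stood above the controls in mutant 1 and below them in mutants 2 and 3. Neo1, the largest part of the receptor sums, had this same pattern by itself. The sums restate values of single genes, and how often other sums separate the groups was not computed.

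Ratios of some of these genes were also read in each library. The ratio of Ntn1 to Draxin per exon length was 0.482, 0.54 and 0.563 in the libraries labelled mutant and 0.372, 0.334 and 0.32 in controls. Since Ntn1 was higher and Draxin lower without overlap, this ratio had to separate the groups and adds no evidence to the 2 genes, neither of which passed. Within the Unc5 family the ratio of Unc5c to Unc5d per exon length was 0.333, 0.443 and 0.553 in the libraries labelled mutant and 0.236, 0.311 and 0.255 in controls, without overlap. How often ratios of other gene pairs separate the groups was not computed. The ratio of Dcc to Neo1 was 0.301, 0.327 and 0.314 in the libraries labelled mutant and 0.245, 0.273 and 0.309 in controls, which overlapped. Between a ligand and its receptor, the ratio of Ntn1 to Dcc was 1.22, 1.47 and 1.51 in the libraries labelled mutant and 1.59, 1.28 and 1.07 in controls, which overlapped as well. These 4 ratios combine the values above, were chosen after those were seen, and carry no test.

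A list of 35 other genes of the pathway was also read, of which 34 had a row (Ntn3 is not analysed here) and 32 were tested. In edgeR's quasi-likelihood test 0 of the 32 passed an FDR of 0.05. At an unadjusted p under 0.05 there were 4 higher and 2 lower, against 9.6% of all genes in either direction, and the median log2 fold change was 0.01. DESeq2 and edgeR's likelihood-ratio test also called 0. Groups did not overlap for 9 of the 32, against 16.7% of all tested genes.

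Among the other netrins, Ntng1, which encodes the membrane-anchored netrin-G1 of thalamocortical axons, had 32.3, 30.1 and 31.6 CPM in the libraries labelled mutant and 26.7, 20.3 and 22.8 CPM in controls. The groups did not overlap, and the log2 fold change was 0.43 (95% interval 0.17 to 0.68, adjusted p = 0.215 in the quasi-likelihood test of edgeR). The authors' deposited table lists Ntng1 at 0.41 with an FDR of 0.0461. Its paralog Ntng2 had 77.2, 56.1 and 49.7 CPM in the libraries labelled mutant and 85.7, 72.6 and 66.7 CPM in controls, with a log2 fold change of -0.30 (95% interval -0.62 to 0.03). The netrin-G proteins bind their own ligands and not Dcc or Unc5. Ntn5 was at 0.668 CPM or less in each library and was not tested.

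Among the other ligands of these receptors, the neogenin ligand gene Rgma had 161, 163 and 166 CPM in the libraries labelled mutant and 145, 130 and 130 CPM in controls. Rgmb, its relative, had 96.0, 108 and 103 CPM in the libraries labelled mutant and 93.2, 88.9 and 89.8 CPM in controls. Both genes had groups without overlap, with log2 fold changes of 0.27 (adjusted p = 0.228) and 0.18 (adjusted p = 0.49) in the quasi-likelihood test of edgeR. Flrt1, Flrt2 and Flrt3, which encode membrane proteins that bind Unc5 receptors, had log2 fold changes of -0.28, 0.09 and 0.09, and all 3 groups overlapped. Of the receptor partners Gpc3 (0.11) and the netrin co-receptor gene Dscam (-0.09) had the smallest p of the 4 tested, and 0 of the 4 had an unadjusted p under 0.05.

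The intracellular effectors, 20 genes listed as acting under Dcc or Unc5, split evenly with 10 above and 10 below 0. The smallest p belonged to Pak1, a kinase activated by Rac and Cdc42, with 183, 160 and 183 CPM in the libraries labelled mutant and 197, 207 and 198 CPM in controls. Dock1, a Rac exchange factor, had 40.9, 37.4 and 37.2 CPM in the libraries labelled mutant and 43.1, 43.5 and 47.7 CPM in controls. The log2 fold changes of Pak1 and Dock1 were -0.19 and -0.22 (adjusted p = 0.462 and 0.466 in the quasi-likelihood test of edgeR). Groups did not overlap for 6 of the 20 effectors, against 16.7% of all tested genes. These were Pak1, Dock1, Ptk2, Rac1 and Cdc42, which were lower, and Trio, which was higher.

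The calls of the pathway list also changed with the libraries and the setting used. With mutant 1 left out 4 of the 32 passed, against 2.14% of all genes. By the same edgeR test these were Rgma (0.29, adjusted p = 0.0436), Ntng2 (-0.50, adjusted p = 0.0305), Flrt1 (-0.62, adjusted p = 0.0131) and the actin-binding gene Ablim1 (-0.30, adjusted p = 0.0408). Within SPF-552 alone 6 passed, against 3.7% of all genes, with Ntng1 and Rgmb added to these 4. The exon length offset and the title number as a block together, a fit that holds mutant 1, called 2, against 2.68% of all genes. These 2 were Rgma (0.26, adjusted p = 0.0272) and Ntng1 (0.39, adjusted p = 0.0465) by the same edgeR test.

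**Figure D5:**
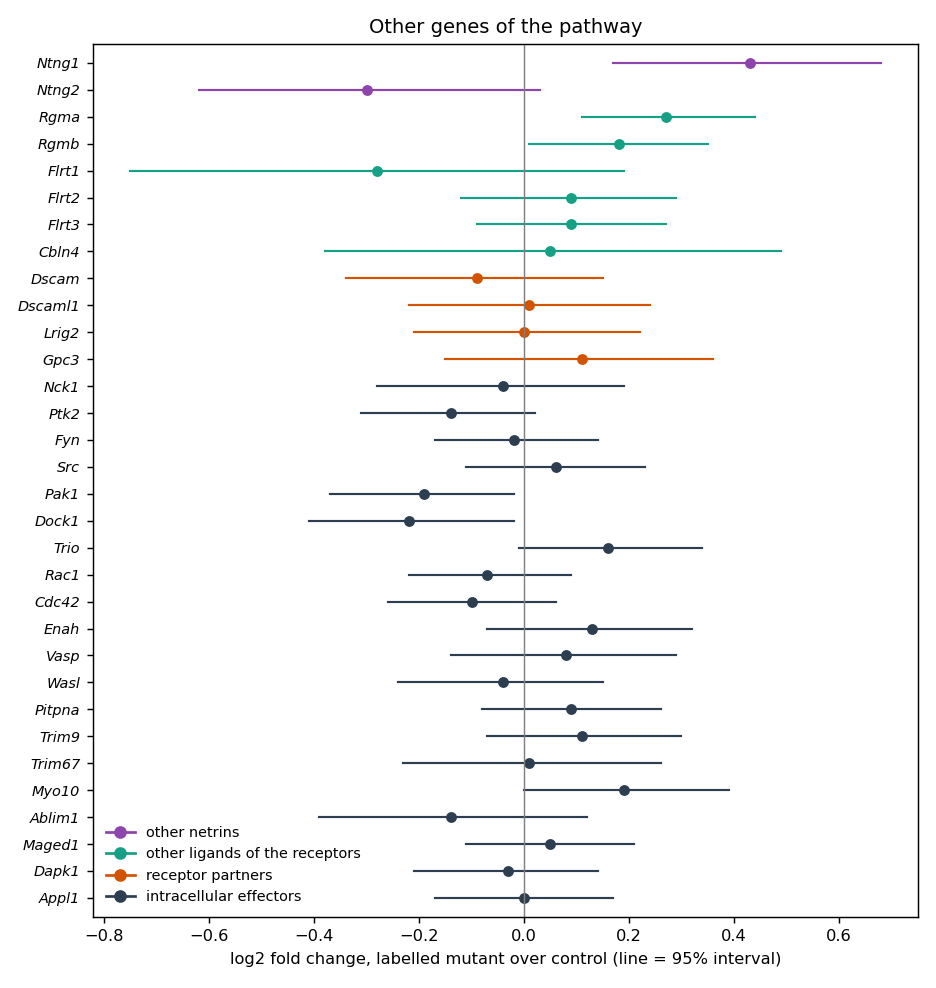
Log2 fold change of labelled mutant over control with its 95% interval for the 32 tested genes of the pathway list, coloured by group. Ntng1 at 0.43 and Ntng2 at -0.30 stand farthest out on their sides, the 20 effectors lie between -0.22 and 0.19, and Flrt1 at -0.28 has the widest interval (-0.75 to 0.19).

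Markers of the cell types that hold these transcripts were read beside them. The 6 intermediate progenitor markers were all below 0, with a median distance from the control mean in log2 CPM of -0.48, -0.48 and -0.46 in the libraries labelled mutant and 0.03, -0.01 and -0.02 in controls. Their sum was 434.9 to 446.7 CPM in the libraries labelled mutant and 597.4 to 629.8 CPM in controls. Eomes, the T-box factor that defines these cells, had 137, 105 and 101 CPM in the libraries labelled mutant and 186, 178 and 176 CPM in controls. These markers were low in all 3 libraries labelled mutant, whereas Unc5d was low in mutants 2 and 3 but not in mutant 1, and the part of these markers in its difference was not tested.

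The 8 deep-layer neuron markers summed to 1057 to 1233 CPM in the libraries labelled mutant and 1202 to 1333 CPM in controls, with 7 of 8 below 0. The 12 ganglionic eminence markers were all above 0, and summed to 1060 to 1196 CPM in the libraries labelled mutant and 864 to 997.2 CPM in controls. The 9 diencephalon markers were all above 0 too, and summed to 458.6 to 555.5 CPM in the libraries labelled mutant and 370.4 to 407.4 CPM in controls. Of the markers in these 3 lists only Nxph3, among the deep-layer ones, passed an FDR of 0.05 in the quasi-likelihood test of edgeR. No marker in these lists was at 0 in any library. Ntn1, Ntng1 and Dcc transcripts also occur outside the cortical lineage, and the part of these markers in their values was not tested.

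Meningeal markers, which move with tissue carried over at dissection, summed to 669.4 to 739.8 CPM in the libraries labelled mutant and 561.5 to 793.4 CPM in controls. The 5 pericyte markers summed to 207.1 to 220.0 CPM in the libraries labelled mutant and 207.3 to 228.5 CPM in controls. Beside these ranges the overlapping values of Ntn4, whose product sits in vascular basement membranes, gave a log2 ratio of 0.04 within SPF-539 and 0.18 within SPF-552.

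The genes whose profile over the 6 libraries was most like that of the 3 most variable members were found by the root mean square difference of centred log2 CPM among 10165 genes whose mean over the 6 libraries was 10 CPM or more. For Unc5d these were Nkain2, Zbtb38 and Nfib (differences of 0.0328, 0.0523 and 0.0613 on the log2 scale). Nfib, a nuclear factor I gene of cortical progenitors and neurons, averaged 710 CPM in the libraries labelled mutant and 875 CPM in controls. For Unc5a they were Gpx7, Sema4d and Asic1 (0.0347, 0.0419 and 0.0558), and for Dcc they were Macf1, Ndnf and Huwe1 (0.0188, 0.0276 and 0.0286). None of these 9 genes passed an FDR of 0.05 in edgeR's quasi-likelihood test, and the smallest adjusted p among them was 0.379, that of Asic1. Dcc and Unc5d belong to the class with 8 kb of exon or more, which stood at 0.18 in mutant 1 and -0.05 in control 1. The part of that shift in the likeness of these profiles was not tested.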

How the data were processed

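Total RNA was made into libraries with a kit that marks no strand, per the labels' protocols. Per the submitters' processing notes, the mm10 (GRCm38) build was used with HTSeq 0.5.4p5, TopHat2 2.0.9 and edgeR 3.4.2, in an order not stated. The authors deposited estimated counts per gene, unscaled between libraries, of which 22.69% to 24.87% per library are not whole; the tool behind them is not stated. The authors' deposited comparison table holds a log2 fold change, mean log2 CPM, a likelihood-ratio score, a p-value and its FDR per gene; its model is not stated.

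Identifiers were matched to GENCODE M21 (GRCm38) symbols, and 99.39% of 34866 matched. Estimated counts were rounded. Mutant was compared with control in edgeR 4.0.16 (R 4.3.3) with filterByExpr (minimum count 10, minimum total 15), TMM factors, a quasi-likelihood fit (robust) and adjustment by Benjamini-Hochberg over 15216 genes at an FDR of 0.05; log2 CPM used a prior count of 2. Intervals are 95% from the fitted standard error. Biological variation was 12.3% (coefficient of variation), and log2 fold changes had a median standard error of 0.125. Replicates were numbered by accession, so their numbers pair no samples; nothing says whether replicates share a litter. Replicates of 1 group differed by chi-square values of 4.83 to 29.7 per gene, so none were copies, and p-values measure the spread between these samples. The first principal component (29.5% of variance) separated the title numbers.

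The exon length offset was a lowess trend per library of log ratio on log exon length. Other settings were scaling (RLE, upper quartile, totals), DESeq2 1.42.0, the likelihood-ratio test, no filter, an FDR of 0.1, a block for title number, only SPF-552, and each library left out. Named genes were all 9 members, the 2 with the smallest p in each pathway group, any that passed, and the 3 closest profiles of the 3 most variable members; other genes given were chosen after their values were seen. Members and lists were chosen with earlier results of these data known. The fit was tested on simulated data. Figures used matplotlib 3.10.9.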

Additional observations from a re-analysis of the deposited data

Results flagged for a closer look

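Neo1, Unc5b and Unc5d are given again because libraries labelled mutant stood on opposite sides of the controls in SPF-539 and in SPF-552. Neo1 and Unc5d were higher in mutant 1 than in control 1, Unc5d by less than 1 CPM, and lower in mutants 2 and 3 than in controls 2 and 3. Unc5b was lower in mutant 1 than in control 1 and higher in mutants 2 and 3 than in controls 2 and 3. The log2 ratio in SPF-539 minus that in SPF-552 was 0.46 for Neo1, -0.26 for Unc5b and 0.62 for Unc5d. With 1 library against 1 in SPF-539, this difference was not tested. Neo1 and Unc5d have more than 8 kb of exon, the class that stood at 0.18 in mutant 1 and -0.05 in control 1. The part of this shift in the values of single genes was not tested.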

How the results depend on the processing

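Over 16 other settings Ntn1, Ntn4, Draxin, Dcc, Unc5a, Unc5c and Unc5d kept their direction. Their log2 fold changes ranged from 0.28 to 0.36 (Ntn1), 0.07 to 0.20 (Ntn4), -0.40 to -0.27 (Draxin), 0.01 to 0.32 (Dcc), -0.41 to -0.14 (Unc5a), 0.17 to 0.40 (Unc5c) and -0.61 to -0.25 (Unc5d). Neo1 turned to -0.13 in SPF-552 alone, -0.02 with the exon length offset, -0.02 with that offset and the title-number replicate block, and -0.10 without mutant 1; Unc5b turned to -0.06 without control 3. With a library left out Neo1 ranged from -0.10 to 0.11 and Unc5b from -0.06 to 0.13. Members called, 0 in the reported fit, were 1 by DESeq2 and by the likelihood-ratio test (Ntn1), 3 in SPF-552 alone and 3 with the offset and block (Ntn1, Draxin and Unc5d in both), and 0 to 3 with a library left out. The cause was not tested. Genes called, 21 in the reported fit, were 188 (DESeq2), 150 (likelihood ratio), 130 (no filter), 564 (SPF-552 alone), 67 (offset), 408 (offset and block), 56 (FDR of 0.1) and 3 to 330 with a library left out, most without mutant 1. Pathway genes called, 0 in the reported fit, were 6 in SPF-552 alone, 2 with the offset and block, and 0 to 4 with a library left out. The receptor median, 0.030 in the reported fit, was -0.059 in SPF-552 alone, -0.007 with the offset (with or without the block) and -0.043 to 0.066 with a library left out, below 0 without mutant 1 or control 3. The ligand median, 0.140, was 0.075 to 0.205 with a library left out. The Sap130 log2 fold change was 0.56 to 0.64 with a library left out. The title number as a replicate block called 116 genes and 0 members, with Ntn1 at an adjusted p of 0.0586 and Draxin at 0.0936 by edgeR's quasi-likelihood test; it marks no stated pairing. The median standard error of 0.125 over all genes limits which log2 fold changes 3 libraries against 3 can call.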
